A study of Zea mays with 2 samples.

Results

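Of 41406 gene models with a value, 4 were chosen by identifier for their part in ethanol fermentation and the low-oxygen response: the alcohol dehydrogenase genes adh1 (GRMZM2G442658) and adh2 (GRMZM2G098346), the pyruvate decarboxylase gene pdc3 (GRMZM2G087186) and a haemoglobin gene (GRMZM2G067402) that carries the names Hb, Hbm and GLB1. All 4 were expressed, with an RPKM (reads per kilobase of gene, scaled to the reads of the library) of at least 1 in at least 1 library. The tissue was endosperm, the nutritive tissue of the kernel, taken from maize (Zea mays) 15 days after pollination. One library was made from dek44, a defective kernel mutant, and 1 from wild type; no other allele or treatment is named in the labels. As background, Dek44 is known to encode a protein of the mitochondrial ribosome, so the comparison asks whether low-oxygen genes differ together in a mutant whose mitochondria are affected. The series text speaks of triplicates, but each genotype has 1 column of values, and the sources used here do not say whether kernels or libraries were pooled in it. No difference below therefore has a replicate check or a p-value, and each describes these libraries.

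Ethanol fermentation lets plant cells go on making ATP by glycolysis when mitochondria cannot reoxidise NADH. Pyruvate decarboxylase turns pyruvate into acetaldehyde, and alcohol dehydrogenase reduces acetaldehyde to ethanol and returns NAD+ to glycolysis. Non-symbiotic plant haemoglobins bind oxygen tightly and remove nitric oxide, and their transcripts, like those of both enzymes, are known to accumulate in maize and other cereals when oxygen runs low.

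Recovered depths were 22612657 reads (dek44) and 20861135 reads (wild type). Of 30136 expressed genes, 31.6% were higher in dek44 by 2-fold or more and 3.70% lower by as much, with ratios taken on log2(RPKM + 1). Their median log2 ratio was 0.62, so a gene with equal RPKM in both libraries lay below most genes. Defining markers of starchy endosperm, the zein storage proteins among them, were present in both libraries, but 32 of 33 were at least 2-fold lower in dek44, with a summed RPKM of 49671 in dek44 against 311256 in wild type; the alpha zein gene z1C1_13 was at 0 in dek44. Of 9 expressed basal transfer layer markers 9 were at least 2-fold higher, with a sum of 3555 in dek44 against 425 in wild type. Of these MRP1 counts as expressed through dek44 alone. The marker BETL1 did not reach the level called expressed, at 0.694 in dek44 against 0.564 in wild type. Of 2 embryo-surrounding region markers 2 were at least 2-fold higher, with 118 in dek44 against 8.27 in wild type. Of 3 expressed aleurone markers 3 were higher, with a sum of 28.9 in dek44 against 11.0 in wild type, and bz1 among them counts as expressed through dek44 alone. The marker r1 was at 0 in dek44, and c1 and c2 were at 0 in wild type. Of 3 expressed embryo markers 0 passed 2-fold, with 473 in dek44 against 403 in wild type, and green tissue markers summed to 2.30 in dek44 against 0.912 in wild type. The markers were also counted past 2-fold with the median ratio of all expressed genes set to 0. Lower ones were then 32 of the 33 starchy endosperm markers and 1 of the 3 embryo markers, beside 10.9% of all genes. Higher ones were 8 of the 9 basal transfer layer and 2 of the 2 embryo-surrounding region markers, beside 13.6% of all genes. Of the 3 aleurone markers 0 passed 2-fold on this scale. The part of these markers in the results below was not tested, and in bulk tissue fewer cells of a type and less RNA per cell cannot be told apart.

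The 4 genes did not differ together. Haemoglobin and pdc3 were at least 2-fold higher in dek44, adh1 and adh2 were within 2-fold, and 0 were at least 2-fold lower. These 2 of 4 stand against the 31.6% of all expressed genes that were higher, and 4 genes are too few to read a share from. The order of ratios was haemoglobin, pdc3, adh2 and adh1, and the 95% counting intervals of neighbours in that order did not overlap.

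**Figure D1:**
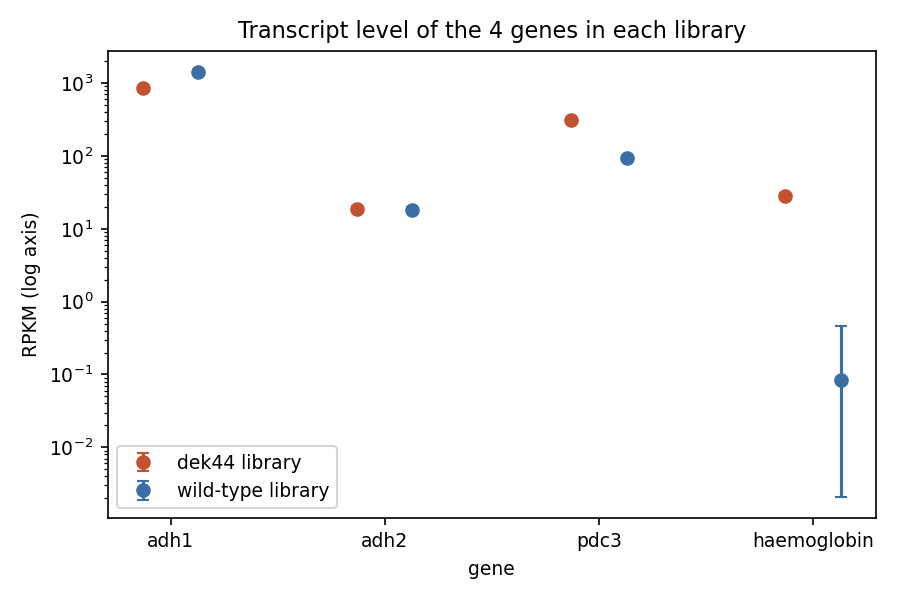
RPKM (log axis) of adh1, adh2, pdc3 and haemoglobin in the dek44 library (left of each pair) and the wild-type library (right); bars are 95% exact Poisson intervals from the smallest recovered reads and cover counting error only. The haemoglobin point stands at 28.1 in dek44 against 0.0832 in wild type, the pdc3 point is higher in dek44, the adh1 point is lower in dek44, and the intervals of adh2 overlap.

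The gene adh1 encodes the main alcohol dehydrogenase of the maize kernel and seedling. It had an RPKM of 848 in dek44 against 1399 in wild type. It was the most abundant of the 4 genes in both libraries, ranking 134 in dek44 against 71 in wild type among the 41406 gene models. Its level in dek44 was 1.65-fold lower than in wild type (95% interval 1.61 to 1.69), a log2 ratio of -0.72 on the log2(RPKM + 1) scale. Of the expressed genes 5.91% had a ratio that low or lower. With the median ratio of all expressed genes set to 0, the log2 ratio of adh1 was -1.49, and its plain level was 2.80-fold lower in dek44 (2.74 to 2.87). The direction for adh1 was thus the same on either scale, but it passed 2-fold only on the second, where 10.9% of expressed genes were at least 2-fold lower.

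The gene adh2 encodes the second alcohol dehydrogenase known from maize seedlings, whose subunits pair with those of adh1. It had an RPKM of 18.7 in dek44 against 18.04 in wild type, a 1.04-fold difference whose 95% interval, 0.908 to 1.18, includes no change. Relative to the median of all genes the sign turned: the log2 ratio of adh2 was 0.05 as deposited and -0.68 with the median ratio set to 0, where its plain level was 1.64-fold lower in dek44 (1.44 to 1.87). Levels of adh2 were 2.21% of those of adh1 in dek44 and 1.29% in wild type. The genes are similar in coding sequence and the treatment of reads that match both is not stated, so a small share of adh1 reads placed on adh2 could make up much of its value. That share was not tested. Together adh1 and adh2 summed to 867 RPKM in dek44 against 1417 RPKM in wild type.

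The gene pdc3 encodes a pyruvate decarboxylase, the enzyme that commits pyruvate to ethanol. It had an RPKM of 313 in dek44 against 95.1 in wild type and ranked 616 in dek44 against 1323 in wild type. It was 3.29-fold higher in dek44 (3.17 to 3.41), a log2 ratio of 1.71. Of the expressed genes, 3250 had a higher ratio, and 89.2% had one at or below it. Its log2 ratio was 0.95 with the median ratio set to 0, short of 2-fold, and its plain fold was 1.94 (1.86 to 2.01).

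A second pyruvate decarboxylase gene, pdc2 (GRMZM2G038821), differed the other way. Its RPKM was 51.1 in dek44 against 103 in wild type, 0.498 times the wild-type level (0.455 to 0.545), with a log2 ratio of -0.99. As a result pdc3 stood at 6.12 times the level of pdc2 in dek44 and 0.928 times in wild type. The sum of pdc2 and pdc3 was 364 RPKM in dek44 against 198 RPKM in wild type. Set against the sum of adh1 and adh2, it came to 42.0% in dek44 and 13.9% in wild type, and pdc3 alone to 36.9% of adh1 in dek44 and 6.80% in wild type. These quotients within a library do not depend on how the libraries are scaled. The similarity of pdc2 and pdc3 makes their split of reads uncertain as well. The table used for names lists a pdc1 without a matching identifier, and pdc1 was not analysed here.

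The haemoglobin gene had an RPKM of 28.1 in dek44 against 0.0832 in wild type, from 366 reads and 1 read, the smallest numbers that could be fitted. The plain ratio was 338, with a 95% counting interval of 60.2 to 13372, so the size of the difference was poorly fixed while its lower bound was far above 2-fold. On the log2(RPKM + 1) scale, which understates changes from a low level, its ratio was 4.75, and 61 of 30136 expressed genes had a higher one. Haemoglobin counts as expressed through its dek44 value alone, so this rank is a description only. A count of 3 reads would correspond to 0.2497 RPKM in wild type, which makes its wild-type value no more than a trace at this depth. Its log2 ratio was 4.35 with the median ratio set to 0. Of the 6434 other genes at or under its wild-type RPKM, 4 reached its level in dek44: GRMZM2G075315, GRMZM2G152822, GRMZM5G837113 and GRMZM6G257110, all at 0 in wild type and at 108, 31.8, 33.4 and 39.2 in dek44. These 4 were named after their values were seen. The 6434 were drawn from all 41406 gene models, including models without reads in either library, and the cut was the haemoglobin value itself. The count of 4 therefore does not measure how rare such a pair of levels is.

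A second gene with a haemoglobin name, Hb2 (GRMZM2G168898), had an RPKM of 0.926 in dek44 against 0 in wild type, from 4 recovered reads and 0 reads. It did not reach the level called expressed, and no fold is given. In dek44 haemoglobin stood above adh2, at 28.1 and 18.7 RPKM, whereas in wild type it was at 0.0832 and adh2 at 18.04.

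**Figure D2:**
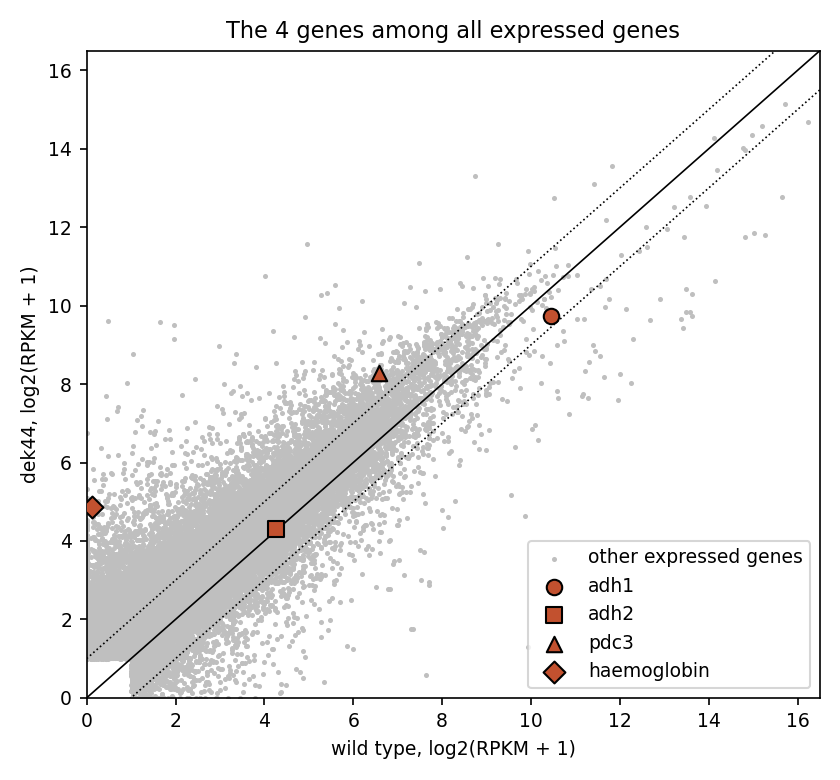
Level of each expressed gene in wild type (horizontal axis) and dek44 (vertical axis), both as log2(RPKM + 1); grey points are the other expressed genes, the solid line marks equal levels and the dotted lines 2-fold differences. Haemoglobin lies near 0 on the wild-type axis and far above the upper dotted line, pdc3 lies above that line, adh2 on the solid line and adh1 between the solid and the lower dotted line.

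The named genes with the nearest pair of levels, by Euclidean distance between log2(RPKM + 1) values over the 2 libraries, differed in how near they were. For adh2, dmt106, aprl5 and bas1 lay within 0.01 to 0.07, and 404 expressed genes lay within 0.25. For pdc3 the nearest were elf*-uaz7c01f12, vdac1a, a mitochondrial porin gene, and RPS21, a ribosomal protein gene, at distances of 0.11, 0.13 and 0.19, with 23 genes within 0.25. For adh1 they were rps27, TA1 and alt at 0.45, 0.50 and 0.52, with 1 gene, GRMZM2G010783, within 0.25. For haemoglobin they were PLTZ9, TMT and expB7, an expansin gene, at 0.39, 0.42 and 0.44, with 4 genes within 0.25: GRMZM2G092718, GRMZM2G146380, GRMZM2G152822 and GRMZM2G159587. With 2 libraries, such likeness means no more than similar levels in each.

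Fermentation and aldehyde removal, listed by gene name with the alcohol dehydrogenases, pyruvate decarboxylases and aldehyde dehydrogenases, held 10 expressed genes. Of these 2 were at least 2-fold higher in dek44, 1 at least 2-fold lower and 7 within 2-fold, beside 31.6% higher and 3.70% lower among all expressed genes, and the median log2 ratio was 0.02 beside 0.62. Setting the median ratio to 0 left 1 higher and 4 lower, beside 13.6% and 10.9% of all genes. The higher ones were pdc3 and rf2c (GRMZM2G071021), a cytosolic aldehyde dehydrogenase gene, at 8.13 in dek44 against 0.159 in wild type, with a log2 ratio of 2.98. Of these rf2c counts as expressed through dek44 alone, and its wild-type value rests on 5 recovered reads. It was also the 1 left higher with the median ratio set to 0. The lower one, rf2b (GRMZM2G125268), encodes a mitochondrial aldehyde dehydrogenase and had 35.4 in dek44 against 130 in wild type, a log2 ratio of -1.84. A second identifier named rf2b, GRMZM2G125378, rests on 4 recovered reads in dek44 against 9 in wild type. The 4 lower with the median ratio set to 0 were adh1, pdc2 and both identifiers of rf2b, so rf2b is counted there under each. The mitochondrial aldehyde dehydrogenase gene rf2, known as a restorer of male fertility, had 30.2 in dek44 against 17.7 in wild type, and adh1C (GRMZM2G361662) had 51.2 in dek44 against 51.4 in wild type. Lactate dehydrogenase was not analysed here.

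The anaerobic polypeptides of maize are the proteins that seedling roots are known to go on making without oxygen, and most are enzymes of sucrose cleavage, glycolysis and ethanol formation. Of 15 expressed genes with their names, adh1, adh2 and pdc3 included, 4 (26.7%) were at least 2-fold higher in dek44, 1 lower and 10 within 2-fold, with a median log2 ratio of 0.05. Among all expressed genes 31.6% were higher and 3.70% lower, and 15 genes are too few to tell these shares apart. The 4 higher ones were pdc3, the enolase gene eno1 (GRMZM2G064302), the glyceraldehyde-3-phosphate dehydrogenase gene gpc4 (GRMZM2G176307) and the sucrose synthase gene sus1 (GRMZM2G152908). Eno1 had 8760 RPKM in dek44 against 2729 in wild type, gpc4 had 12060 in dek44 against 3634 in wild type, and sus1 had 195 in dek44 against 51.0 in wild type. The log2 ratios of eno1 and gpc4, 1.68 and 1.73, lay close to the 1.71 of pdc3, and that of sus1 was 1.91. The plain fold of sus1 was 3.82 (3.66 to 3.99), above the interval of pdc3 (3.17 to 3.41). These genes are set side by side because they passed 2-fold, so their nearness is a description only. The lower one was the sucrose synthase gene sh1 (GRMZM2G089713), with 788 in dek44 against 6565 in wild type and a log2 ratio of -3.06. With the median ratio set to 0, 1 of the 15, sus1, was higher and 6 were lower, beside 13.6% and 10.9% of all genes. Those lower were adh1, pdc2, sh1, xet1 and both identifiers of phi1, so phi1 is counted under each. Of these xet1 was low in both libraries, at 0.411 in dek44 against 1.58 in wild type.

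**Figure D3:**
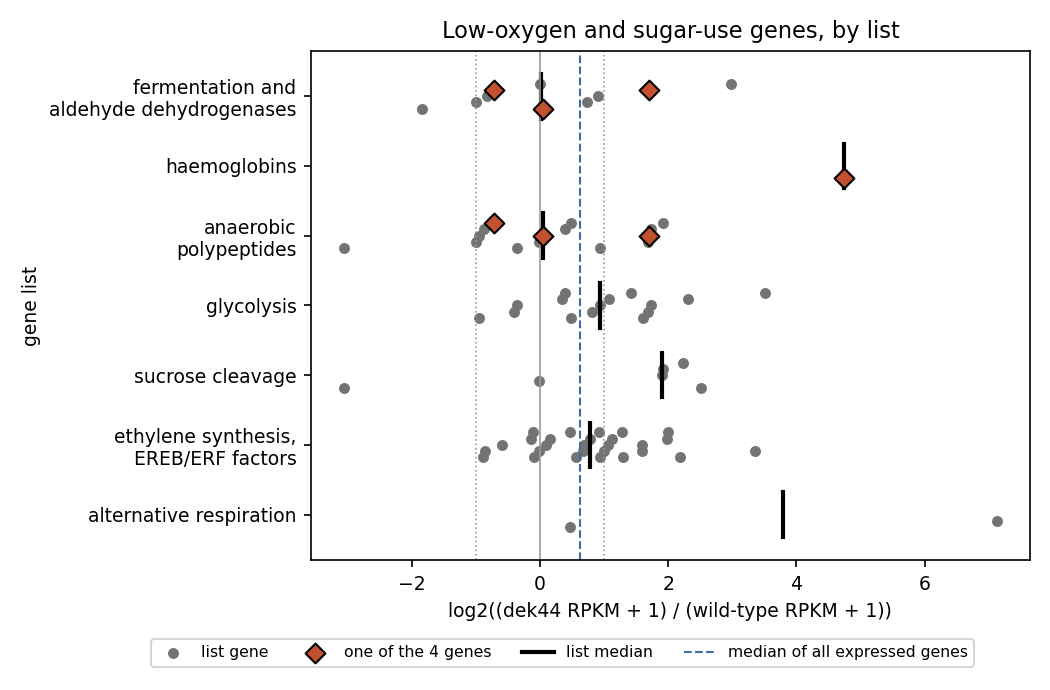
Log2 ratio (dek44 over wild type, RPKM + 1) of each expressed gene in 7 lists; diamonds are adh1, adh2, pdc3 and haemoglobin, black bars list medians, the dashed line the median of all expressed genes and dotted lines 2-fold differences. The medians of the fermentation genes, at 0.02, and of the anaerobic polypeptides, at 0.05, lie left of the dashed line at 0.62, and that of sucrose cleavage, at 1.91, right of it.

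Glycolysis, which supplies pyruvate to the pathway, held 15 expressed genes, of which 7 (46.7%) were at least 2-fold higher in dek44, 0 lower and 8 within 2-fold, beside 31.6% and 3.70% of all expressed genes. Their median log2 ratio was 0.93. After the median ratio was set to 0, 2 were higher, gpc2 and frk2, and 3 were lower, beside 13.6% and 10.9% of all genes. Those lower were frk1 and both identifiers of phi1. The share of higher ones was then close to the 13.6% of all genes. The fructokinase gene frk2 (GRMZM2G051677) had 299 in dek44 against 25.3 in wild type, the largest log2 ratio of the list at 3.51. The gene gpc2 (GRMZM2G180625) had 3047 in dek44 against 615 in wild type, a log2 ratio of 2.31. The phosphoglycerate kinase gene Pgk-2 (GRMZM2G382914) had 2124 in dek44 against 1009 in wild type, and hex2 (GRMZM2G432801) had 12.5 in dek44 against 3.44 in wild type, with log2 ratios of 1.07 and 1.60. Members within 2-fold included gpc3, at 4639 in dek44 against 3311 in wild type, the aldolase gene ald1, at 2821 in dek44 against 1477 in wild type, and the phosphoglucose isomerase gene phi1, whose pair of identifiers had log2 ratios of -0.36 and -0.94.

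Sucrose cleavage held 6 expressed genes, 4 of them at least 2-fold higher in dek44 and 1, sh1, lower, beside 31.6% and 3.70% of all expressed genes, with a median of 1.91. On the scale with the median ratio set to 0 the counts were 4 and 1 as well, beside 13.6% and 10.9%. Besides sus1, the higher ones were the invertase genes mn1, incw1 and IVR1, at 84.6, 9.19 and 3.83 RPKM in dek44 and 21.9, 0.784 and 0.0238 RPKM in wild type. Of these incw1 and IVR1 count as expressed through dek44 alone, and the wild-type value of IVR1 rests on 1 recovered read. Summed RPKM of the list went the other way, at 1127 in dek44 against 6685 in wild type, with sh1 the largest part in each. The gene mn1 marks the basal transfer layer too. The sucrose synthase gene sus2 (GRMZM2G318780) had 46.2 in dek44 against 46.7 in wild type.

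Ethylene helps to set off low-oxygen responses, and some ERF transcription factors switch on fermentation genes in Arabidopsis and rice. Of 27 expressed genes of ethylene synthesis and the EREB/ERF family 10 (37.0%) were at least 2-fold higher in dek44 and 0 lower, with a median of 0.78; the share was near the 31.6% of all expressed genes. After the median ratio was set to 0, 4 were higher and 3 lower, beside 13.6% and 10.9%. The largest ratio was that of EREB26 (GRMZM2G317160), at 16.4 in dek44 against 0.709 in wild type, with a log2 ratio of 3.35. It was followed by EREB94 (GRMZM2G363052), at 46.4 in dek44 against 9.43 in wild type. Of the higher ones EREB26 and EREB93 (GRMZM2G066158) count as expressed through dek44 alone. EREB93 rests on 3 recovered reads in dek44 and 0 in wild type. EREB171 and EREB20 had log2 ratios of 1.99 each, and EREB14 had 1.60 at 161 RPKM in dek44 against 52.6 in wild type. The gene acs7, named for the enzyme that makes the ethylene precursor, had 10.8 in dek44 against 2.93 in wild type. EREB160, the second most abundant in dek44, had 120 in dek44 against 121 in wild type. Which of these belong to the oxygen-sensing subgroup is not given in the names.

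Alternative oxidase takes electrons to oxygen past the cytochrome pathway, so it is set beside fermentation as another way to reoxidise NADH. The gene found by its name (GRMZM2G125669) had 261 RPKM in dek44 against 0.873 in wild type, a log2 ratio of 7.13. This gene counts as expressed through dek44 alone, and its wild-type value rests on 9 recovered reads. The uncoupling protein gene PUMP had 238 in dek44 against 172 in wild type, a log2 ratio of 0.46. On the log2(RPKM + 1) scale haemoglobin, at 4.75, lay between the pair, and pdc3, adh2 and adh1 lay at 1.71, 0.05 and -0.72. The order of alternative oxidase and haemoglobin depends on that scale. Their plain ratios were 299 (157 to 654) and 338 (60.2 to 13372), with overlapping counting intervals.

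Counted once per identifier, the lists without the 4 genes held 58 expressed genes, of which 23 (39.7%) were at least 2-fold higher in dek44 and 2 (3.45%) lower, beside 31.6% and 3.70% of all expressed genes. The names rf2b and phi1 each cover a pair of identifiers here. Among the higher ones rf2c, incw1, IVR1, EREB26, EREB93 and the alternative oxidase gene count as expressed through dek44 alone. With the median ratio set to 0 the counts were 12 and 11 of 58, beside 13.6% and 10.9% of all genes.

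**Figure D4:**
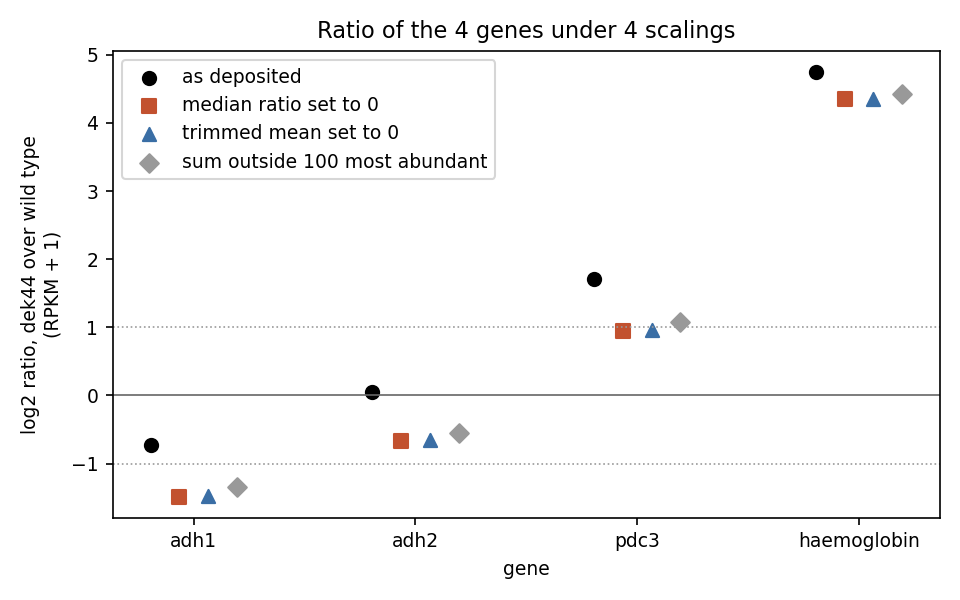
Log2 ratio (dek44 over wild type, RPKM + 1) of the 4 genes with the RPKM as deposited and under 3 other scalings; dotted lines mark 2-fold. Haemoglobin stays between 4.35 and 4.75, pdc3 lies between 0.95 and 1.71 and crosses the upper dotted line, adh2 lies between -0.68 and 0.05 and changes sign, and adh1 lies between -1.49 and -0.72 and crosses the lower dotted line.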

How the data were processed

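Endosperm RNA of 1 dek44 library and 1 wild-type library was compared. The authors deposited RPKM values per the file headers, that is, reads per kilobase scaled to the reads of the library, for 41406 gene models. Alignment with Bowtie 0.12.2 to B73 RefGen_v3 is named in the submitters' processing notes; the counting rule, strand use, gene lengths and treatment of multiply matching reads are not given there or in the labels. RPKM is relative to the library, so fewer reads in abundant transcripts raise all others.

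Whole reads were recovered from the RPKM steps: with the totals in the report, 39505 of 39505 genes above 0 gave whole reads within the rounding of the printed values, for a length of at least 100 bases. The reads are the smallest that could be fitted, so true reads may be a multiple. The recovery was tested on simulated data. A ratio is log2((dek44 RPKM + 1)/(wild-type RPKM + 1)), on which 2-fold was the threshold; it understates changes of low genes. Expressed genes are those that reached an RPKM of 1 in either library. Plain folds carry 95% exact conditional binomial (Clopper-Pearson) intervals of counting error only. For the median scaling, RPKM of both libraries were moved by equal factors in opposite directions until the median ratio was 0. No test was possible with 1 library per genotype.

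Names were taken from RefSeq genes of Zm-B73-REFERENCE-NAM-5.0, another assembly than that of the files; 16689 identifiers matched and 2369 had a name. Lists used name patterns. Homonyms (such as homeobox HB names, gpm markers, pk names, globulin glb1, and GLB1 among the embryo markers) were removed and Pgk-1 and Pgk-2 added after the matches were seen. The 4 genes and the lists were chosen with earlier results of these data known. Genes named were the 4, up to 5 of each list by ratio size, the 2 most abundant among those with an RPKM of at least 5, some of them given by counts only, and the 3 named genes nearest to each of the 4; further list genes and identifiers were named after their values were seen. Computations used Python 3.11.15, numpy 2.4.6, pandas 2.3.3 and scipy 1.17.1.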

Additional observations from a re-analysis of the deposited data

How the results depend on the processing

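For adh1, adh2 and pdc3, scaling was the choice that moved the ratio beyond counting error. With the median ratio set to 0, the log2 ratios of adh1, adh2 and pdc3 were -1.49, -0.68 and 0.95. With a trimmed mean set to 0 they were -1.47, -0.66 and 0.96, and after rescaling to the sum without the 100 most abundant genes -1.35, -0.55 and 1.08. The sign of adh2 therefore depends on the scaling, adh1 passed 2-fold under these 3 and not as deposited, and pdc3 failed it under 2 of them. The log2 ratio of haemoglobin was past 2-fold under every setting tried, but its size depends on the pseudocount, from 2.70 with a pseudocount of 5 to 8.40 with none. A pseudocount of 0.1 or 5, none, a filter at RPKM 5 or no filter left adh1, adh2 and pdc3 within their counting error.

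Over all expressed genes, 9529 were higher in dek44 by 2-fold or more and 1116 lower. Those counts were 4192 and 543 with a pseudocount of 5, 2084 and 260 at 4-fold, 4098 and 3298 under the median scaling, 4176 and 3213 under the trimmed mean, and 4775 and 2716 without the 100 most abundant genes in the sum. Of the 62 expressed genes in the pathway lists, the 4 genes included, 25 were higher and 2 lower. The counts were 9 and 1 at 4-fold, 13 and 12 under the median scaling, 13 and 12 under the trimmed mean, and 11 lower without the 100 most abundant genes in the sum. With a pseudocount of 0.1, 5 were lower. With the lists exactly as the name patterns matched, homonyms included, 38 were higher and 5 lower, over 96 genes. No paired analysis was possible because there is 1 library for each genotype, and for the same reason no replicate could be left out. Depth limited the wild-type value of haemoglobin, which rests on 1 recovered read, the smallest number that could be fitted.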

Other observations

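Nitrate reductase supplies the nitrite that can be turned into the nitric oxide removed by haemoglobins. Genes named for nitrate or nitrite reductase were nearly silent. Of 3 with a matching name 0 were expressed. NIR (GRMZM2G079381), named for nitrite reductase, had an RPKM of 0.839 in dek44 against 0.0803 in wild type. The nitrate reductase gene NNR1 (GRMZM2G568636) had 0 in dek44 against 0.158 in wild type. The other gene named for nitrate reductase (GRMZM5G878558) had 0.0828 in dek44 against 0.592 in wild type.

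Genes next to the 4 on the chromosome, taken as up to 3 on either side with a value here in the gene order of the other assembly, had ratios of their own. Among the expressed neighbours of haemoglobin 2 of 5 were at least 2-fold higher in dek44 and 0 lower. The higher ones were GRMZM2G152895, at 17.6 in dek44 against 0.338 in wild type, and aos1 (GRMZM2G067225), at 15.3 in dek44 against 5.34 in wild type. Of the neighbours of adh1, with adh1C among them, 1 of 6 was higher, of those of adh2 3 of 6 and of those of pdc3 2 of 5, with 0 lower in each, beside 31.6% of all expressed genes. The neighbour of adh2 with the largest log2 ratio, GRMZM2G025154, had 44.7 in dek44 against 1.29 in wild type. Neighbours were looked at after the values were seen, and no test was made.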
